A study of Mus musculus with 5 samples.

Results

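Chemokine and chemokine receptor genes were followed through the BRG1 peak lists of mouse bone marrow-derived macrophages. The 56 genes (38 ligands and 18 receptors) are RefSeq protein-coding genes whose symbol is Ccl, Cxcl, Xcl, Cx3cl, Ccr, Cxcr, Xcr or Cx3cr with a number and at most 1 letter, out of 21887 protein-coding genes. The Baf60a knockout (KO) and wild-type (WT) macrophages were each profiled untreated and with oxidised low-density lipoprotein (oxLDL) by chromatin immunoprecipitation and sequencing with an antibody against BRG1. Cells given oxLDL are called treated below. Each of the 4 groups is 1 library, and 1 input library without antibody was not analysed here. The sources used here do not give how the knockout was made, the number, age or sex of the mice, or the dose and time of oxLDL. No group has a replicate, so no test or p-value is given.

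Chemokines are small secreted proteins that guide leukocytes along concentration gradients, and their receptors are G protein-coupled receptors on the guided cells. Many ligand and receptor genes arose by tandem duplication and stand side by side in clusters. Macrophages are a main source of inflammatory chemokines, and in atherosclerosis they are recruited to the artery wall by some of the same signals. BRG1 is an ATPase of the SWI/SNF complexes, which move nucleosomes, and BAF60a is an accessory subunit of these complexes.

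The lists held 237 peaks (untreated WT), 139 (untreated KO), 9907 (treated WT) and 4668 (treated KO). Total read numbers are not in peak lists, but the fragment pileup at each summit could be recovered from the fold enrichment and the p-value. The lowest local background was 2.70, 3.84, 3.76 and 3.42 fragments in the same order, and the smallest pileup of any listed peak was 12, 15, 12 and 12 fragments. Macrophage marker genes had a peak within 20 kb at 10 of 10 in treated WT and 8 of 10 in treated KO. In each untreated list it was 1 of 10. The shares of all protein-coding genes were 33.2% in treated WT and 21.1% in treated KO. Among markers of other cells, the counts in treated WT and treated KO were 2 and 0 of 8 for T cells, 1 and 2 of 6 for B cells, 2 and 1 of 8 for neutrophils, 4 and 1 of 6 for dendritic cells, 1 and 0 of 6 for fibroblasts and 1 and 0 of 4 for endothelium. The dendritic cell marker with a peak in treated KO was Xcr1, itself one of the 56 genes. Smarcd1, the gene of BAF60a, is not checked by a BRG1 peak list.

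A gene was counted as having a peak when a summit lay in its body or within 20 kb. No peak was listed near any of the 56 genes in untreated WT or untreated KO cells, which allows a share of up to 6.42% (Wilson 95% interval, counting error only). Among all protein-coding genes the share was 1.19% in untreated WT and 0.553% in untreated KO, so these 0 counts are not a result about chemokine genes. The nearest untreated peaks lay 155216 bp from the interleukin-8 type receptor gene Cxcr2 in untreated WT and 824288 bp from the eotaxin gene Ccl24 in untreated KO. In treated WT, 20 of the 56 genes had a peak (35.7%, interval 24.5 to 48.8), against 33.2% of all protein-coding genes. In treated KO, 8 had one (14.3%, interval 7.42 to 25.7), against 21.1%. All 8 were among the 20 of treated WT. The share of all protein-coding genes with a peak in both treated lists was 17.5%, that with one in treated WT alone 15.6% and that with one in treated KO alone 3.55%. The corresponding counts here were 8, 12 and 0 genes, or 14.3%, 21.4% and 0%. The chemokine genes were thus near the background in treated WT, and below it in treated KO by less than the counting interval covers. Within 30 kb, a limit chosen after seeing the data, 14 genes had a peak in treated KO (25.0%), against 24.8% of all protein-coding genes.

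Nearer to the genes the counts were lower. Within 5 kb, 13 genes had a peak in treated WT (23.2%, interval 14.1 to 35.8, against 24.4% of all protein-coding genes) and 5 in treated KO (8.93%, interval 3.87 to 19.3, against 14.8%). The untreated counts were again 0, where 0.74% of all protein-coding genes had a peak in WT and 0.379% in KO. With a summit in the body or within 1 kb, 8 genes had a peak in treated WT (14.3%, interval 7.42 to 25.7, against 21.6% of all protein-coding genes). In treated KO it was 1 gene, Ccl4 (1.79%, interval 0.316 to 9.45, against 13.1%), and in the untreated lists 0, against 0.621% in WT and 0.315% in KO. The treated KO interval at 1 kb lies below the background share, which was the case for no other count at 20 kb, 5 kb or 1 kb in the treated lists. The intervals treat the genes as independent, but neighbouring genes share peaks. Of the peaks within 20 kb, 12 of 26 in treated WT and 3 of 8 in treated KO reached 2 or more of the genes. The intervals are therefore likely too narrow, and no conclusion is drawn from the 1 kb count. Chemokine genes are short: their median body was 4941 bp, against 17169 bp for all protein-coding genes, and the part of gene length in these counts was not tested.

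**Figure D1:**
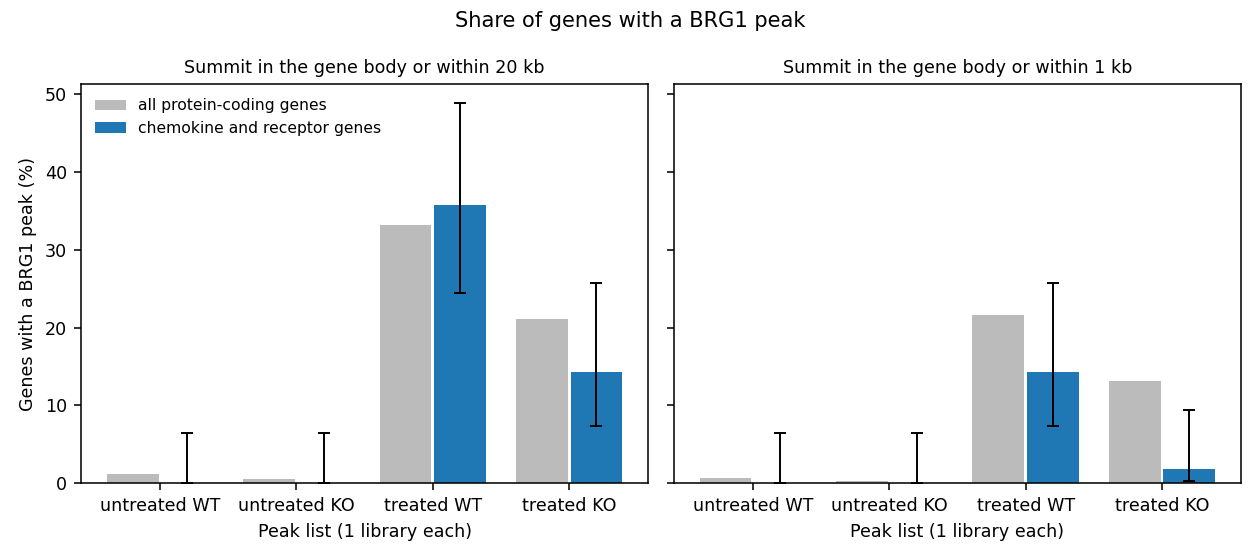
Percentage of genes with a BRG1 peak in each of the 4 lists, for all 21887 protein-coding genes (grey) and the 56 chemokine and receptor genes (blue), counted within 20 kb (left) or within 1 kb (right). Error bars are Wilson 95% intervals of the blue bars. They cover counting error only and treat neighbouring genes as independent, so they are likely too narrow. At 1 kb in treated KO the blue bar (1.79%) stands below the grey one (13.1%).

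The peaks themselves numbered 26 in treated WT and 8 in treated KO, a ratio of 0.308, where the ratio of the whole lists was 0.471. At the ratio of the whole lists, 12.3 peaks would be expected in treated KO. Their heights were near the medians of the lists. The authors' fold enrichment ran from 2.94 to 5.46 in treated WT, with a median of 3.71 beside 3.75 for the whole list, and from 2.92 to 4.67 in treated KO, with a median of 3.85 beside 3.85. The pileups were 13 to 25 fragments in treated WT and 14 to 21 in treated KO, so each peak rests on few fragments. A −log10 q of at least 5 was reached by 5 of the 26 peaks and 1 of the 8, against 25.4% and 19.8% of the whole lists. Of the 26 peaks, 9 lay in a chemokine or receptor gene or within 1 kb of one and 12 lay more than 5 kb away.

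Few of these sites were listed in both genotypes. Of the 26 treated WT peaks, 4 shared at least 1 bp with a peak of treated KO (15.4%, interval 6.15 to 33.5), against 27.3% of all treated WT peaks. Conversely, 4 of the 8 treated KO peaks had a counterpart in treated WT (interval 21.5 to 78.5%), against 59.6% of that whole list. Both whole-list shares lie within these intervals. The summits of the 4 shared sites were 6 to 50 bp apart. The other 22 treated WT peaks had a median fold enrichment of 3.60, beside 3.78 for the 4 overlapped ones, and for 11 of the 22 the nearest treated KO summit was more than 20 kb away. A site absent from a list may still be bound below the limit of the caller.

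Of the 4 shared sites, 3 lay inside other genes. Cxcl17 (chromosome 7, 25400053 to 25412886), a chemokine gene of mucosal tissues, had 2 peaks in each list, all 4 inside the neighbouring Lipe, which encodes hormone-sensitive lipase. The site 4543 bp from Cxcl17 had a fold enrichment of 4.41 in treated WT and 3.85 in treated KO, and the site 13948 bp away had 3.78 and 3.97. Cxcr6 (chromosome 9, 123806477 to 123811754), a receptor gene of T and natural killer cells, had its peak 4057 bp away, inside Fyco1, with 3.78 in treated WT and 3.62 in treated KO. The remaining shared site lay between chemokine genes, 7631 bp from Ccl3, with 3.72 in treated WT and 4.67 in treated KO. The value of treated KO there is the highest of its 8 peaks, at the 83.4 percentile of its own list.

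**Figure D2:**
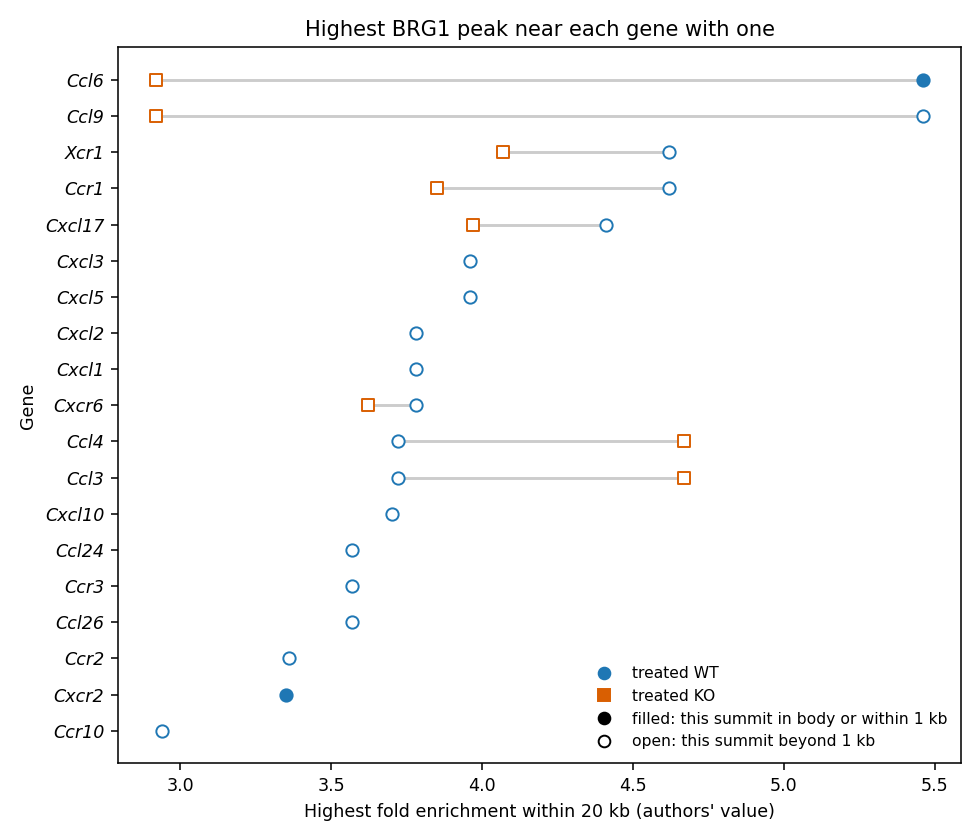
Highest authors' fold enrichment within 20 kb of each of 19 genes with a peak, in treated WT (circles) and treated KO (squares), with a grey line where both lists have one. A filled symbol means that the plotted summit lies in the gene or within 1 kb. Neighbouring genes can share a peak, as Ccl6 and Ccl9 do at 5.46 and Ccl3 and Ccl4 at 3.72 and 4.67, and 11 of these genes have no square.

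Among inflammatory CC genes, 6 of 7 had a peak in treated WT and 5 of 7 in treated KO, against 33.2% and 21.1% of all protein-coding genes. The groups by role were chosen with earlier results of these data known, so the counts by role are a description. This group holds the ligand genes Ccl3, Ccl4, Ccl5, Ccl6 and Ccl9 and receptor genes, Ccr1 among them, through which these ligands draw monocytes, macrophages and T cells. The 5 ligand genes form a cluster of 139 kb on chromosome 11. Within 20 kb of them treated WT had 8 peaks and treated KO 3. With peaks between the genes that lie farther off included, the cluster and 20 kb on either side held 5.59 peaks per 100 kb in treated WT and 2.79 in treated KO, where the whole genome had 0.412 and 0.194. Ccl5 (83525778 to 83530518), a T cell attractant gene at one end of the cluster, had no peak within 20 kb in any list, and the nearest treated WT summit was 46966 bp away.

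Ccl6 (chromosome 11, 83587886 to 83593087), a mouse CC ligand gene, had the highest of the peaks within 20 kb. Its summit stood at 83593323, 236 bp before the gene start, with a fold enrichment of 5.46, a −log10 q of 8.69 and a pileup of 25 fragments over a background of 3.76, at the 95.1 percentile of the treated WT list. No treated KO peak overlapped it. The treated KO list had a peak 2919 bp farther out, at 83596242, with 2.92 and a pileup of 20 fragments over a background of 6.19, at the 5.74 percentile of its list. Another treated WT peak stood at 83605020 with 3.99. These 3 sites lie inside the long noncoding RNA gene E230016K23Rik, and the lists cannot tell which gene a peak acts on. Beyond 20 kb, between Ccl6 and Ccl3, 2 more sites overlapped between the lists, with 3.99 in treated WT and 4.07 in treated KO at the first and 4.08 and 4.10 at the next. Ccl9 (83572917 to 83578636), the neighbouring ligand gene, had a wide treated WT peak of 1027 bp in its body, with the summit 1152 bp after the gene start and a fold enrichment of 3.57. The Ccl6 start peak and the treated KO peak beside it also lie within 20 kb of Ccl9.

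Ccl6, Ccl3 and Cxcl2 had summits within 1 kb of a gene start with a promoter entry, so the 250 bases before these starts are shown, from RefSeq on GRCm38.p6, the assembly of mm10. The relatives Cxcl1 and Cxcl3 were added after values were seen, since they share a motif with Cxcl2. Each line reads 5′ to 3′ toward the gene, and capitals mark matches to the motifs named below. The Ccl6 sequence is chr11:83593088-83593337 and the Ccl3 sequence chr11:83649379-83649628, both on the minus strand. The others lie on the plus strand, Cxcl2 at chr5:90903649-90903898, Cxcl1 at chr5:90890995-90891244 and Cxcl3 at chr5:90785851-90786100.
Ccl6: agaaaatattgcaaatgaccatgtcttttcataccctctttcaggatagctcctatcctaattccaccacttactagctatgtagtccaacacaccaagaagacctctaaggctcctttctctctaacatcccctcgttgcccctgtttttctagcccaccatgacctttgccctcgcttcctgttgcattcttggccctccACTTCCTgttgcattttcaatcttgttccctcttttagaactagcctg
Ccl3: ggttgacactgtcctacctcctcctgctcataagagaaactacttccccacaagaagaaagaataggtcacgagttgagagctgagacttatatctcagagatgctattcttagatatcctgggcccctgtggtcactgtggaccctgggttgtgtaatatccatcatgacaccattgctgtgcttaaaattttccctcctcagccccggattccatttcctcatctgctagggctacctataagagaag
Cxcl2: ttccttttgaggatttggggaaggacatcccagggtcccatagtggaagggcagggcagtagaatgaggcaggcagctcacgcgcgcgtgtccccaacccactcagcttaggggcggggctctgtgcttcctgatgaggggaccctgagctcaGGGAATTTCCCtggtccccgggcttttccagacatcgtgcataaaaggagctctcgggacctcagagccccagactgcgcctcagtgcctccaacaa
Cxcl1: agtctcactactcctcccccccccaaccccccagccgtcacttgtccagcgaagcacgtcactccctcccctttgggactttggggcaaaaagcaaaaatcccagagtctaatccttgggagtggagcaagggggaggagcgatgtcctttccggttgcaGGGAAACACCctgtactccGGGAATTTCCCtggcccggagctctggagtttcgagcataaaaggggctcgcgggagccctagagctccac
Cxcl3: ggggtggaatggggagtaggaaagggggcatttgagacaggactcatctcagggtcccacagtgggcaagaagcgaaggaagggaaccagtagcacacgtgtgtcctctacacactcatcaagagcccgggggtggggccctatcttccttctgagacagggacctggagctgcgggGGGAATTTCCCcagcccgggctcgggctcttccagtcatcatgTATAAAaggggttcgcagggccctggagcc

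The motifs searched on both strands were GAGGAAGT and its core AGGAAGT for PU.1, TGANTCA for AP-1, GGGAN followed by TTTCC for NF-kB (the strict form), its loose form of GGGA, any 4 bases and CC, TTGCNNAA for C/EBP, GAAANN followed by GAAA for interferon response and TATAAA for a TATA box. The longer motif of each pair is a case of the shorter or looser one. Of 17492 protein-coding genes with a promoter entry, 0.337% held the strict NF-kB motif, 19.1% the loose one, 7.40% AGGAAGT, 2.18% GAGGAAGT, 6.22% TGANTCA, 9.11% TTGCNNAA, 3.02% the interferon motif and 12.4% TATAAA. An entry was found for 42 of the 56 genes, and the strict NF-kB motif stood in 4 of these 42: Cxcl1, Cxcl2, Cxcl3 and Ccr3. Cxcl1, Cxcl2 and Cxcl3 stand in one cluster, so the 4 are not independent cases. The loose form stood in 16 of the 42, TATAAA in 10, AGGAAGT in 7 and TTGCNNAA in 5. TGANTCA stood in 4, the interferon motif in 3 and GAGGAAGT in 1. In Cxcl2 the strict NF-kB motif occupies positions -97 to -88 from the gene start, inside the treated WT peak. That peak runs from -186 to 81 with its summit at -155. In Cxcl1 it stands at -71 to -62 and in Cxcl3 at -73 to -64, and neither start had a peak. At Ccl6 the peak covered -392 to -82, and the single match, to AGGAAGT on the opposite strand at -48 to -42, lies outside it. The Ccl3 sequence had no match. Such matches describe letters and do not show that a factor binds.

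Ccl3 (chromosome 11, 83647843 to 83649378) and Ccl4 (83648624 to 83664683) encode macrophage inflammatory proteins, and their annotated bodies overlap. The treated WT list had 2 peaks in Ccl3, with summits 278 bp and 1159 bp after its start and fold enrichments of 3.15 and 3.64. Neither overlapped a treated KO peak, and the nearest treated KO summits were 8937 and 8056 bp away. The peak at 278 bp is low, with 14 fragments and a −log10 q of 1.91, at the 19.0 percentile of its list. Its summit also lies in the annotated body of Ccl4. Beyond the Ccl3 end, treated WT had 3.72 at the shared site and 3.57 at a site 635 bp from the treated KO summit. In the part of Ccl4 outside Ccl3, the summits of the 2 lists lay 1471 bp apart, at 83664057 with 3.36 in treated WT and at 83662586 with 3.39 in treated KO. The treated KO peak in Ccl4 rested on 14 fragments and was the sole treated KO summit in a chemokine gene or within 1 kb of one.

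**Figure D3:**
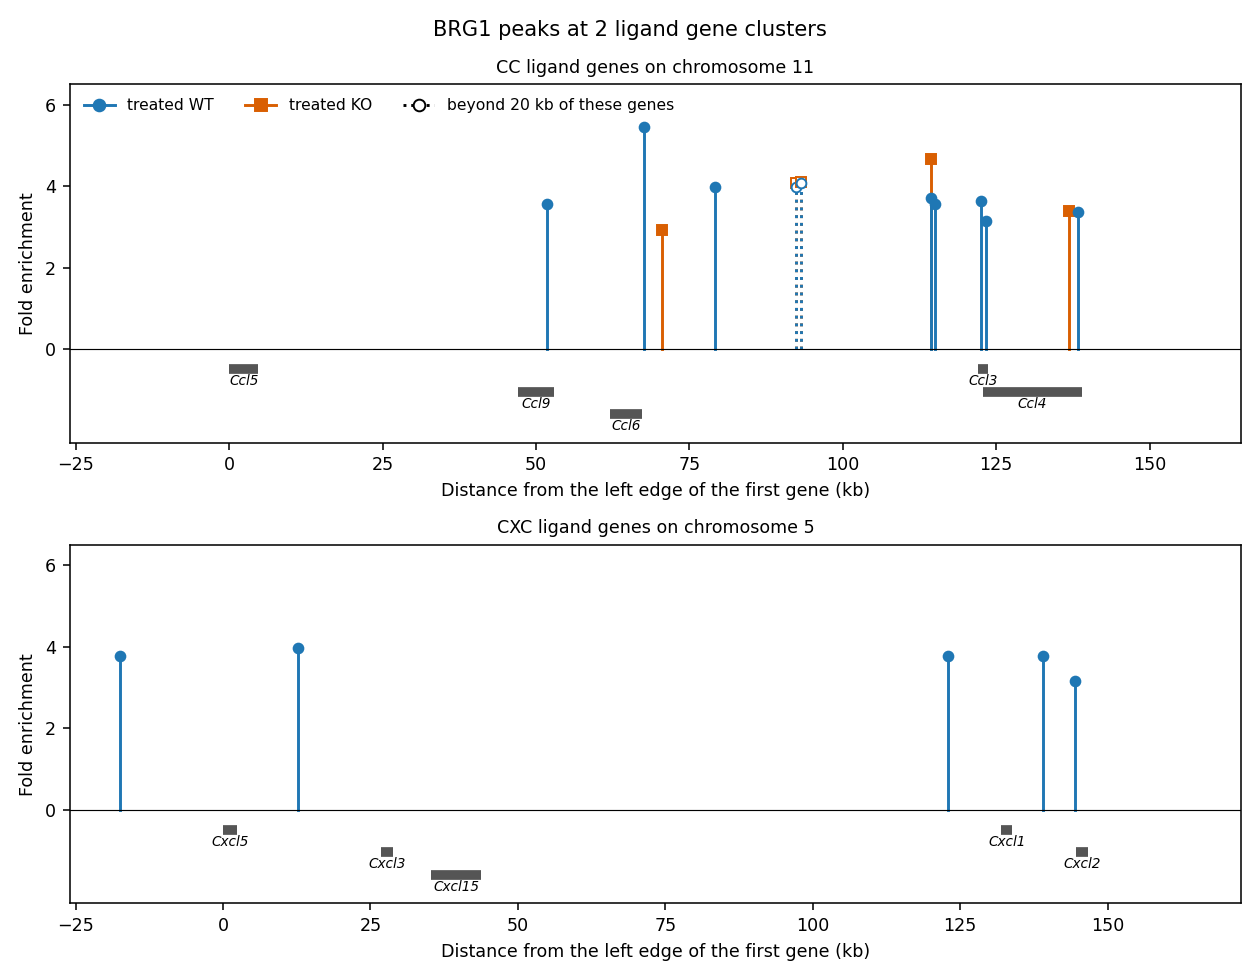
Position and fold enrichment of BRG1 peaks at the CC ligand cluster of chromosome 11 (top) and the neutrophil-attracting CXC ligand cluster of chromosome 5 (bottom), with gene bodies drawn below the line and open symbols on dotted lines for peaks beyond 20 kb of these genes. The top panel has peaks of both treated lists; the bottom panel has 5 peaks of treated WT and none of treated KO. The untreated lists had no peak in either.

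Neutrophil-attracting CXC genes had peaks within 20 kb in treated WT and none in treated KO. Among all protein-coding genes the share with a peak was 33.2% in treated WT, 21.1% in treated KO and 15.6% in treated WT alone. Of 7 genes (the ligand genes Cxcl1, Cxcl2, Cxcl3, Cxcl5 and Cxcl15 and the receptor genes Cxcr1 and Cxcr2), 5 had a peak in treated WT. The ligand genes form a cluster of 147 kb on chromosome 5 with 5 treated WT peaks within 20 kb. Within 1 Mb on either side of this cluster, treated WT had 8 peaks and treated KO 0. At the other 10 clusters, treated KO had 6 to 17 peaks within 1 Mb, and treated WT 8 to 33. The homing receptor gene Ccr6, which stands alone, had 7 and 0 within 1 Mb. The 2 lists differ in length, and the difference in this cluster was not tested.

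Cxcl2 (90903899 to 90905938) had its start peak at 90903744, with a fold enrichment of 3.15, a −log10 q of 1.91 and a pileup of 14 fragments. This is a low peak, at the 19.0 percentile of its list. Cxcl1 (90891245 to 90893121) had a peak on each side, 9041 bp before its start and 5286 bp beyond its end, both with 3.78 and 17 fragments, and the second lies between Cxcl1 and Cxcl2. Cxcl5 (90759298 to 90761625) had a peak 17458 bp away with 3.78. A wide peak of 1444 bp, with 3.96, lay 10452 bp from Cxcl5 and 14024 bp from Cxcl3 (90786101 to 90788093). The gene nearest to it was Pf4, which encodes a platelet chemokine, at 358 bp. Cxcl15 (90794534 to 90803067) had none within 20 kb, the nearest treated WT summit being 22457 bp away. Cxcr2 (chromosome 1, 74153994 to 74161246), the receptor gene for these ligands, had a peak in its body, 1296 bp after its start, with 3.35 in treated WT. Its neighbour Cxcr1 (74191785 to 74194708) had none within 20 kb.

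Receptor genes on chromosome 9 carried most of the receptor peaks. Of 18 receptor genes, 8 had a peak in treated WT and 3 in treated KO, and of 38 ligand genes 12 and 5, against 33.2% and 21.1% of all protein-coding genes. Ccr9, Cxcr6, Xcr1, Ccr1, Ccr3 and Ccr2 stand on one stretch of chromosome 9, and all but Ccr9 had a peak in treated WT. Xcr1 (123852315 to 123862029), the XCL1 receptor gene and a marker of cross-presenting dendritic cells, had treated WT peaks 1532 bp before its start, with 4.62, and 593 bp beyond its other end, inside Fyco1, with 4.41. The treated KO list had a peak 1976 bp before its start with 4.07, and its summit was 444 bp from that of treated WT without an overlap. Of the dendritic cell markers, Batf3, Zbtb46, Clec9a and Xcr1 had a peak in treated WT and Xcr1 in treated KO, while Flt3 and Siglech had none in the treated lists.

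Ccr1 (123962126 to 123968692), a receptor gene for Ccl3, Ccl6 and Ccl9 products, had different sites in the 2 lists. The treated WT peak lay 16292 bp away, inside the receptor-like gene Ccr1l1, with 4.62. The treated KO peak lay 19688 bp away on the other side, just within the limit, with 3.85. A treated WT peak 1054 bp from that one, with 5.25, fell just outside the limit at 20742 bp. Ccr3 (124017825 to 124031692), the eotaxin receptor gene, had treated WT peaks 5927 and 6892 bp away with 3.13 and 3.57. Ccr2 (124101918 to 124109140), the monocyte receptor gene for the Ccl2 product, had a peak 18369 bp away with 3.36. Ccr3 and Ccr2 had no treated KO peak within 20 kb.

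The gaps between these receptor genes held further peaks beyond 20 kb. Between Xcr1 and Ccr1, 8 treated WT peaks stood 20742 to 38273 bp from Ccr1, the highest with 5.50, and 1 treated KO peak at 34050 bp with 4.53 that overlapped one of them. Between Ccr3 and Ccr2, treated WT had 5 more peaks, with 2.84 to 4.62, and treated KO 1, with 4.30, overlapping the treated WT peak of 4.62.

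**Figure D4:**
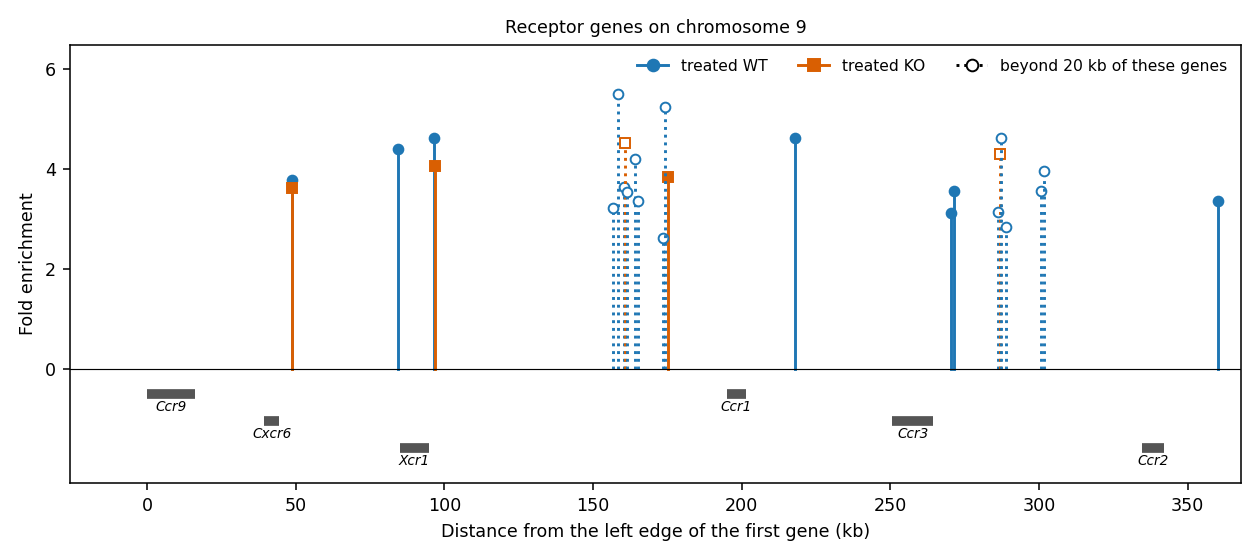
Position and fold enrichment of BRG1 peaks along 6 receptor genes of chromosome 9, with gene bodies drawn below the line; open symbols on dotted lines lie beyond 20 kb of these genes. Peaks of treated KO (squares) stand beside or near treated WT peaks at 5 places, and treated WT peaks (circles) outnumber them.

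In treated WT, 1 of 5 monocyte CC genes, 3 of 4 eosinophil genes and 1 of 3 genes of the interferon-inducible CXC group had a peak. In treated KO it was 0 in each of these groups. The shares of all protein-coding genes were 33.2% and 21.1%, and groups this small are too few to set against them. Of the monocyte CC genes (Ccl2, Ccl7, Ccl8, Ccl12 and Ccr2), the Ccr2 receptor gene had the peak just described. The cluster of Ccl2, Ccl7, Ccl11, Ccl12, Ccl8 and Ccl1, 144 kb on chromosome 11, had no peak within 20 kb in any list. The 20 kb limit matters here. A site 28526 bp from Ccl2 (82035577 to 82037452), the main monocyte attractant gene, had 5.88 with a −log10 q of 10.25 in treated WT and, 2 bp apart, 4.30 in treated KO. Both exceed the median of their lists, and Ccl2 is the nearest protein-coding gene. Among eosinophil genes (Ccl11, Ccl24, Ccl26 and Ccr3), Ccl24 (chromosome 5, 135569935 to 135573123) and Ccl26 (135560448 to 135563569) shared 1 treated WT peak between them, with 3.57, at 1549 and 4817 bp. The interferon-inducible CXC group holds the ligand genes Cxcl9 and Cxcl10 and their receptor gene Cxcr3. Cxcr3 could not be counted, because no list has a peak on X. Cxcl10 (92346638 to 92348889) had a treated WT peak 19430 bp away, inside Art3, with 3.70.

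Homing genes place lymphocytes and dendritic cells in lymphoid and barrier tissues. Of 18 such genes, 1 had a peak in treated WT and 0 in treated KO, against 33.2% and 21.1% of all protein-coding genes. The 18 are not independent cases, and the difference was not tested. Ccl19, Ccl21a, Ccl21b, Ccl21d, Ccl27a and Ccl27b all stand between 41769467 and 42773991 on chromosome 4. Whether reads can be placed uniquely among the Ccl21 and Ccl27 copies was not checked, so their lack of a peak may not mean absence of BRG1. The 1 gene was Ccr10 (chromosome 11, 101172998 to 101175443). Its peak of 2.94, the lowest of the 26 in treated WT within 20 kb, lay 2282 bp away inside Plekhh3. No list had a peak within 20 kb of Ccl19, Ccl20, Ccl21a, Ccl21b, Ccl21c, Ccl21d, Ccl25, Ccl27a, Ccl27b, Ccl28, Cxcl12, Cxcl13, Ccr6, Ccr7, Ccr9, Cxcr4 or Cxcr5. Cxcr4, the CXCL12 receptor gene, had a treated WT peak just outside the limit, at 21785 bp, with 4.41 and no treated KO overlap. Ccr6 had treated WT peaks at 25452 and 26132 bp, with 3.48 and 3.90, both nearer to Mpc1. A site overlapping between the treated lists lay near Cxcr5, though nearer to Bcl9l. It stood 29219 bp from Cxcr5 with 3.09 in treated WT, and 28832 bp with 5.09 in treated KO. The table places Ccl21c at 59769 on chromosome 4, before the first peak of any list on that chromosome at 3236350, so its lack of a peak carries no information. Cxcr3 is on X, where no list has a peak.

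Genes of T cell-directed chemokines, Ccl1, Ccl17, Ccl22, Ccr4 and Ccr8, had no peak within 20 kb in any list. The shares of all protein-coding genes were 33.2% in treated WT and 21.1% in treated KO, and 5 genes are too few to set against them. Just outside 20 kb, treated KO had peaks 21485 and 23158 bp from Ccr8, with 3.85 and 3.17, and 26120 bp from Ccl17, with 3.17. The homing ligand gene Ccl28 had a treated KO peak at 22318 bp with 1.77. That is low for its −log10 q of 4.94, which points to a high local background at this peak. None of these 4 overlapped a treated WT peak, and each lay nearer to another protein-coding gene. Xcl1, Cx3cl1, Cx3cr1 and Cxcl14 had none either. Cx3cr1, the fractalkine receptor gene of monocytes and resident macrophages, had its nearest treated summits 65702 bp away in WT cells and 48095 bp away in KO cells. In all, 36 of the 56 genes had no peak within 20 kb in any list.

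Genes that act below the receptors were also counted, in a list that includes 2 receptor genes of another kind, Fpr1 and Fpr2 for formyl peptides. Of these 36 genes, 33 had a peak within 20 kb in treated WT and 21 in treated KO, all 21 shared, against 33.2% and 21.1% of all protein-coding genes. Fpr1 and Fpr2 are among the 33, with 3.15 each in treated WT, and had no peak in treated KO. Gnai2, the main inhibitory G protein subunit gene of leukocytes, had 4 peaks in each treated list, with highest values of 5.67 and 5.88. Rac2, a small GTPase gene of blood cells, had 5.88 in treated WT and 4.53 in treated KO, and Arrb1, a beta-arrestin gene, 5.25 and 4.98. Vav1, a Rac exchange factor gene, had 9 peaks in treated WT and 2 in treated KO, with 4.41 and 5.88. Pik3cg, the gene of the PI3K catalytic subunit below these receptors, had 4.62 in treated WT and no peak in treated KO. These genes are longer, with a median body of 33329.5 bp, and the part of length was not tested. In the untreated lists Vav1 had a peak in WT (3.78) and Ptk2b, a kinase gene, in KO (4.75). The one counted for Vav1 lay 14574 bp away, and it also lay 14771 bp from the macrophage marker gene Adgre1.

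Of 10 atypical receptors and near relatives, 5 had a peak in treated WT and 0 in treated KO, against 33.2% and 21.1% of all protein-coding genes and 15.6% with one in treated WT alone. The chemerin-binding receptor gene Ccrl2 had 2, with a highest value of 4.20, and Cmklr1, the chemerin receptor gene, had 3.36. The other 3, Pf4, Ppbp and Ccr1l1, had the peaks near Cxcl5 and Ccr1 given above. Ackr1, Ackr2, Ackr3 and Ackr4, scavenging receptor genes, had none. Cmklr1 also had the single untreated WT peak of this list, 19899 bp away with 3.78.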

How the data were processed

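BRG1 ChIP-seq was analysed from 4 deposited peak lists, 1 per library. Tools named in the submitters' processing notes are MACS3, Bowtie2, Trimmomatic 0.33 and bcl2fastq 2.17, with the build mm10, and no role, parameter or control for peak calling is stated there. Per the labels' protocols, chromatin was cut enzymatically.

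The authors deposited a fold enrichment, a ratio of pileup to local background at the summit. The deposited −log10 p and −log10 q values were used as given, and the deposited score is 10 times the −log10 q. A greater list length lowers the p limit: the lowest −log10 p was 5.13 and 5.33 in untreated WT and KO, and 3.67 and 3.96 in treated WT and KO.

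With a pseudocount of 1, fold and p were solved for pileup and background. Pileups came out whole, within 2% of a step, for 99.6%, 97.1%, 100.0% and 100.0% of peaks, and for all 34 peaks described. High-background peaks had over 5 times the lowest background. Summits were joined to RefSeq genes of GRCm38.p6 (chromosomes only). Genes less than 100 kb apart formed a cluster. Densities used chromosomes 1 to 19 from 3 Mb to the last gene end. The rule named every gene with a peak within 20 kb in any list. 1 further gene was left out, and 1 of the counted genes is not described here. The genes, lists and roles were chosen with earlier results of these data known. Scripts used Python 3.11.15, pandas 2.3.3, scipy 1.17.1 and statsmodels 0.14.6, and pileup recovery, assignment and overlap were tested on simulated data.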

Additional observations from a re-analysis of the deposited data

How the results depend on the processing

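The counts of 0 in the untreated lists stayed at 0 under every alternative run. In treated WT, the 20 genes became 13 within 5 kb, 12 when a peak counted for its nearest protein-coding gene alone, 25 within 30 kb and 30 within 50 kb. In treated KO, the 8 genes became 5 within 5 kb and 5 by the nearest gene, and 14 within 30 kb and 19 within 50 kb. The 26 treated WT peaks became 14 within 5 kb, 18 by the nearest gene, 40 within 30 kb and 55 within 50 kb. The 8 treated KO peaks became 5 within 5 kb, 5 by the nearest gene, 17 within 30 kb and 20 within 50 kb. Within 30 kb the share of genes with a peak was 44.6% in treated WT and 25.0% in treated KO, against 37.9% and 24.8% of all protein-coding genes, while by the nearest gene the treated KO share was 8.93%, against 13.7%. The treated KO share thus lay below that of all protein-coding genes within 20 kb, within 5 kb and by the nearest gene, and not within 30 kb or 50 kb (33.9%, against 31.4%). With a −log10 q of at least 2 or a common −log10 p limit of 5.33, treated WT had 19 genes and 22 peaks and treated KO 8 and 8, and without high-background peaks all 4 counts were as reported. The overlap shares ran from 14.3% to 22.5% of treated WT peaks over the alternatives, and from 2 of 5 (within 5 kb) to 55.0% of treated KO peaks. The 30 kb, 50 kb and nearest-gene settings were chosen after seeing the data. No paired analysis was possible because each group has 1 library. No replicate could be left out. Pileups of 13 to 25 fragments limit the precision of each peak.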
